A study of Mus musculus with 8 samples.

Results

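The genes described here, Myof, Adam33, Pirb, Apobec1, Lyz2, Pid1, Ccnd3, Fyb, Cd84 and Cd44, lean towards the myelin-associated state of microglia. They are 10 of the 32285 genes counted, and they were picked from the same data for a higher level in myelin-DAM, or in cells of mice lacking Cnp. Their levels in myelin-DAM and with Cnp loss are therefore given as a description and carry no test. DAM are disease-associated microglia, the activated state that microglia take on in ageing and neurodegeneration. Nuclei were taken from C57BL6/J mice at 6 months of age, from hemispheres whose olfactory bulb and cerebellum had been removed. There were 4 genotypes with 2 libraries each: WT, Cnp-/-, 5xFAD and Cnp-/-;5xFAD. Cnp encodes a myelin enzyme of oligodendrocytes, and mice without it have mild defects of myelin structure. 5xFAD mice are a transgenic model that deposits amyloid in the brain, with expression driven by the neuronal Thy1 promoter. The strain label was the same for all 4 genotypes. Pooling of 2 animals per replicate is stated for the single-cell work as a whole. The methods repeat it for another dataset of the study and do not state it for this one. The p-values measure the spread between libraries, each of which may be a pool or a single animal.

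Microglia are the resident phagocytes of the brain. They sense damage through surface receptors that pair an activating with an inhibitory partner, they take up myelin debris and amyloid, and they digest both in lysosomes. Border macrophages at vessels and meninges share much of this machinery. The 10 genes fall into 4 roles. Pirb, Cd84 and Cd44 are cell-surface receptors: an inhibitory paired receptor with immunoreceptor tyrosine-based motifs, a self-binding receptor of the SLAM family, and a receptor for the matrix sugar hyaluronan. Fyb encodes ADAP, an adaptor that links receptor signalling to integrins, and Pid1 encodes an adaptor that binds the tails of the LDL receptor family. Myof (myoferlin) repairs and fuses membranes, Lyz2 is the lysozyme of phagocytes, and Adam33 is a membrane-bound metalloprotease. Ccnd3 is a D-type cyclin of the G1 phase, and Apobec1 is a cytidine deaminase that edits RNA.

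The promoters of these genes were searched for short letters they share. RefSeq start sites of build GRCm38.p6 were found for 9 of the 10 genes, with 2 starts for Ccnd3, and the 250 bases before each start were searched on both strands. The letters AGGAAGT, the core that PU.1 and other ETS factors of the myeloid lineage bind, stood before Pirb, Lyz2 and the first Ccnd3 start, and the window of any promoter held them in 7.69% of 32851 entries. The AP-1 letters TGAGTCA stood before Cd84 alone (4.46% of all entries), and the E-box CACGTG before none of the 9 genes (6.02% of all entries). The 3 promoters are shown because each carries such a match in a gene with a large difference between the DAM states or a receptor role. They read 5′ to 3′ on the gene's own strand and end 1 base before the start, and capitals mark the match, which in Lyz2 is on the opposite strand.
Pirb, chr7:3720383-3720632, minus strand: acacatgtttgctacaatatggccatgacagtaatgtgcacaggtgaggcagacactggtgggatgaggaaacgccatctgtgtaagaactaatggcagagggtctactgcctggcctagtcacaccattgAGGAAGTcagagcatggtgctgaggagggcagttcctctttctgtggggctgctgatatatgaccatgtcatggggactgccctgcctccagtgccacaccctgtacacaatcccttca
Lyz2, chr10:117282273-117282522, minus strand: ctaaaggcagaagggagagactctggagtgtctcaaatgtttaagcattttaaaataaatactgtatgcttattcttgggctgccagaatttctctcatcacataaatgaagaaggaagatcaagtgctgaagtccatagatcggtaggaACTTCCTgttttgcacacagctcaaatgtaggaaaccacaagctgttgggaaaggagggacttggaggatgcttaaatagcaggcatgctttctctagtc
Cd84, chr1:171839447-171839696, plus strand: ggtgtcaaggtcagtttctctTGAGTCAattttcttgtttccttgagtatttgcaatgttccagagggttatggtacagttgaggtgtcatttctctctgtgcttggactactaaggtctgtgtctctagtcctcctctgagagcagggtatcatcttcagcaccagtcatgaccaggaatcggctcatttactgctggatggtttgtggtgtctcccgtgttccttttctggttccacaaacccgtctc
A match is a description of letters, and binding was not measured here.

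The 8 libraries held 61949 nuclei with a median of 6811 UMIs (unique molecular identifiers, 1 for each RNA molecule counted). Of these, 2291 nuclei were in the table of microglia and macrophages, with a median of 1327 UMIs, and 454 of the 61494 cell barcodes (0.738%) occurred in more than 1 library. Cnp itself stood at 219 to 321 CPM (counts per 1000000 UMIs) in mature oligodendrocytes of the 4 libraries with intact Cnp, and at 23.1 to 32.8 CPM in the 4 libraries without it, which matched the labels. The 5 populations used were those of the authors' annotation: 248 myelin-DAM, 586 amyloid-DAM, 982 homeostatic microglia, 270 MyTE (myelin transcript enriched) and 205 macrophages. A profile is the sum of UMIs over the nuclei of 1 population in 1 library, and profiles of at least 20 nuclei were used. The summed level of 8 DAM markers was 1718 to 2958 CPM in myelin-DAM and 1106 to 2031 CPM in amyloid-DAM, against 223 to 817 CPM in homeostatic microglia. Macrophages had 1573 to 4796 CPM of the same markers, so this sum does not set DAM apart from them. Apoe averaged 2190 CPM in macrophages and 874 CPM in myelin-DAM. The other markers averaged more in myelin-DAM than in macrophages, such as Gpnmb (323 against 1.49 CPM) and Axl (284 against 59.1 CPM). Lpl, Trem2 and Cst7 averaged less in myelin-DAM than in amyloid-DAM. They were at 207, 229 and 22.8 CPM against 262, 274 and 47.3 CPM. Defining macrophage markers Cd163, Lyve1, Pf4 and Cbr2 were at 0 in the 4 myelin-DAM profiles, and the summed level of all 8 macrophage markers was 249 to 331 CPM there against 9231 to 11342 CPM in macrophages. The other 4 were detected in myelin-DAM, at means of 135 CPM for Stab1, 121 CPM for Ms4a7, 22.3 CPM for Mrc1 and 7.30 CPM for F13a1. Ms4a7 was at 8.76 CPM in amyloid-DAM, at 0 in homeostatic microglia and at 446 CPM in macrophages, and Stab1 at 324 CPM in homeostatic microglia. The part of macrophage transcripts in the levels of the 10 genes was not tested. The 7 homeostatic markers were lower in myelin-DAM than in homeostatic microglia, at 3460 to 4581 CPM against 5959 to 7480 CPM. Myelin-DAM came almost wholly from the libraries without Cnp: 83 and 36 nuclei in Cnp-/-, 67 and 49 in Cnp-/-;5xFAD, 5 and 7 in 5xFAD, and 1 in WT. Amyloid-DAM came from 5xFAD (184 and 127 nuclei) and Cnp-/-;5xFAD (143 and 112 nuclei), so only Cnp-/-;5xFAD libraries held both states in number. MyTE nuclei carried 7101 to 9654 CPM of 6 mature oligodendrocyte markers, the other microglia no more than 249 CPM.

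A first set of 5 genes, Myof, Adam33, Pirb, Lyz2 and Cd44, was at low levels in homeostatic microglia and amyloid-DAM and higher in myelin-DAM. Myof (chr19:37899036-38043577, minus strand, GRCm38, as are all gene positions here) had 146 and 191 CPM in the Cnp-/- profiles of myelin-DAM, and the Cnp-/-;5xFAD profiles had 176 and 195 CPM. In amyloid-DAM it was 7.13 and 0 CPM in 5xFAD and 20.8 and 6.91 CPM in Cnp-/-;5xFAD. No amyloid-DAM or homeostatic profile came near the myelin-DAM range. The fitted log2 difference between both DAM states was 4.04 ± 0.52 (± SE, myelin-DAM minus amyloid-DAM, as for all genes), and 3.71 to 4.86 with each library left out. Over the 3052 genes fitted the median was -0.02. Myof, Adam33, Pirb and Lyz2 had 8, 11, 8 and 18 UMIs over the amyloid-DAM profiles. They passed the filter on low counts through myelin-DAM, so their distance from this median was in part set by the filter. Adam33 (chr2:131050591-131063814, minus strand) had 263 and 106 CPM in Cnp-/- profiles, 135 and 248 CPM in Cnp-/-;5xFAD profiles and no more than 27.6 CPM in any profile of amyloid-DAM, for a log2 difference of 3.71 ± 0.57. Pirb (chr7:3711409-3720391, minus strand) had 107 and 148 CPM in Cnp-/- profiles, and the Cnp-/-;5xFAD profiles had 82.9 and 159 CPM. In amyloid-DAM it stayed between 6.91 and 11.2 CPM, and the log2 fold change was 3.49 ± 0.50. Its relatives of the Pira family share sequence with it, and Pira2 had 3 UMIs in the whole table of microglia and macrophages against 136 for Pirb.

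Lyz2 (chr10:117277331-117282321, minus strand) had 87.6 and 127 CPM in Cnp-/- profiles of myelin-DAM, 104 and 124 CPM in Cnp-/-;5xFAD ones, and between 16.6 and 27.9 CPM in amyloid-DAM. The log2 difference was 2.22 ± 0.43. Its neighbour Lyz1, which is close to it in sequence, had 1 UMI against 266 for Lyz2. Cd44 (chr2:102811141-102901665, minus strand) was the most uneven of the 10: in myelin-DAM the Cnp-/- profiles had 107 and 233 CPM, the Cnp-/-;5xFAD profiles 51.8 and 124 CPM. In amyloid-DAM it was at 0 in both 5xFAD libraries and at 49.8 and 48.3 CPM in Cnp-/-;5xFAD, so the lowest myelin-DAM profile lay just above the highest amyloid-DAM one. Cd44 did not pass the filter on low counts in the fit of the 2 states and has no fitted fold change there. These 5 genes rest on 32 (Lyz2) to 59 (Adam33) UMIs over the 4 myelin-DAM profiles, so the counting error of a single profile is large.

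The other 5 genes were expressed in every microglial state. Apobec1 (chr6:122577792-122602444, minus strand) showed the clearest step: 1236 and 954 CPM in the Cnp-/- profiles and 1015 and 1169 CPM in the Cnp-/-;5xFAD profiles, against 307 to 553 CPM in amyloid-DAM and 92.1 to 198 CPM in homeostatic microglia. All 3 ranges were apart, and the log2 fold change over amyloid-DAM was 1.52 ± 0.17. Fyb (chr15:6522853-6663313, plus strand) had 2375 and 2269 CPM in Cnp-/- profiles and 1678 and 1860 CPM in Cnp-/-;5xFAD profiles, above homeostatic microglia at 998 to 1573 CPM and amyloid-DAM at 981 to 1299 CPM, which overlapped each other. Cd84 (chr1:171839697-171890718, plus strand) had 1003 and 1230 CPM in Cnp-/- profiles and 984 and 1240 CPM in Cnp-/-;5xFAD profiles, next to 542 to 737 CPM in amyloid-DAM and 334 to 527 CPM in homeostatic microglia, where the last pair did not overlap either. The log2 fold changes over amyloid-DAM were 0.82 ± 0.13 for Fyb and 0.67 ± 0.14 for Cd84.

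Pid1 and Ccnd3 were set apart by their level in homeostatic microglia, which overlapped that of myelin-DAM. Pid1 (chr1:84036296-84364180, minus strand) had 866 and 1167 CPM in Cnp-/- profiles of myelin-DAM, 912 and 921 CPM in Cnp-/-;5xFAD ones, and 544 to 1015 CPM in homeostatic microglia. In amyloid-DAM it was at 336 to 477 CPM, so the log2 fold change of 1.18 ± 0.15 between the states compared one level near that of homeostatic microglia with another below it. Ccnd3 (chr17:47505051-47599691, plus strand) had the same order of means, at 1017 CPM for myelin-DAM, 875 CPM for homeostatic microglia and 482 CPM for amyloid-DAM, and a log2 fold change of 1.02 ± 0.23. Homeostatic profiles ran from 418 to 1856 CPM, and the 2 of Cnp-/- had 1856 and 1152 CPM. It also divided the myelin-DAM profiles by genotype, with 1441 and 1379 CPM for Cnp-/- but 611 and 638 CPM for Cnp-/-;5xFAD. All 10 genes were above amyloid-DAM in every myelin-DAM profile, as the choice of genes makes likely, where 2.83% of the 8979 genes with at least 10 UMIs were. The genes other than Pid1 and Ccnd3, 8 of them, were above homeostatic microglia in every profile, where 2.67% of 9468 genes were.

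**Figure D1:**
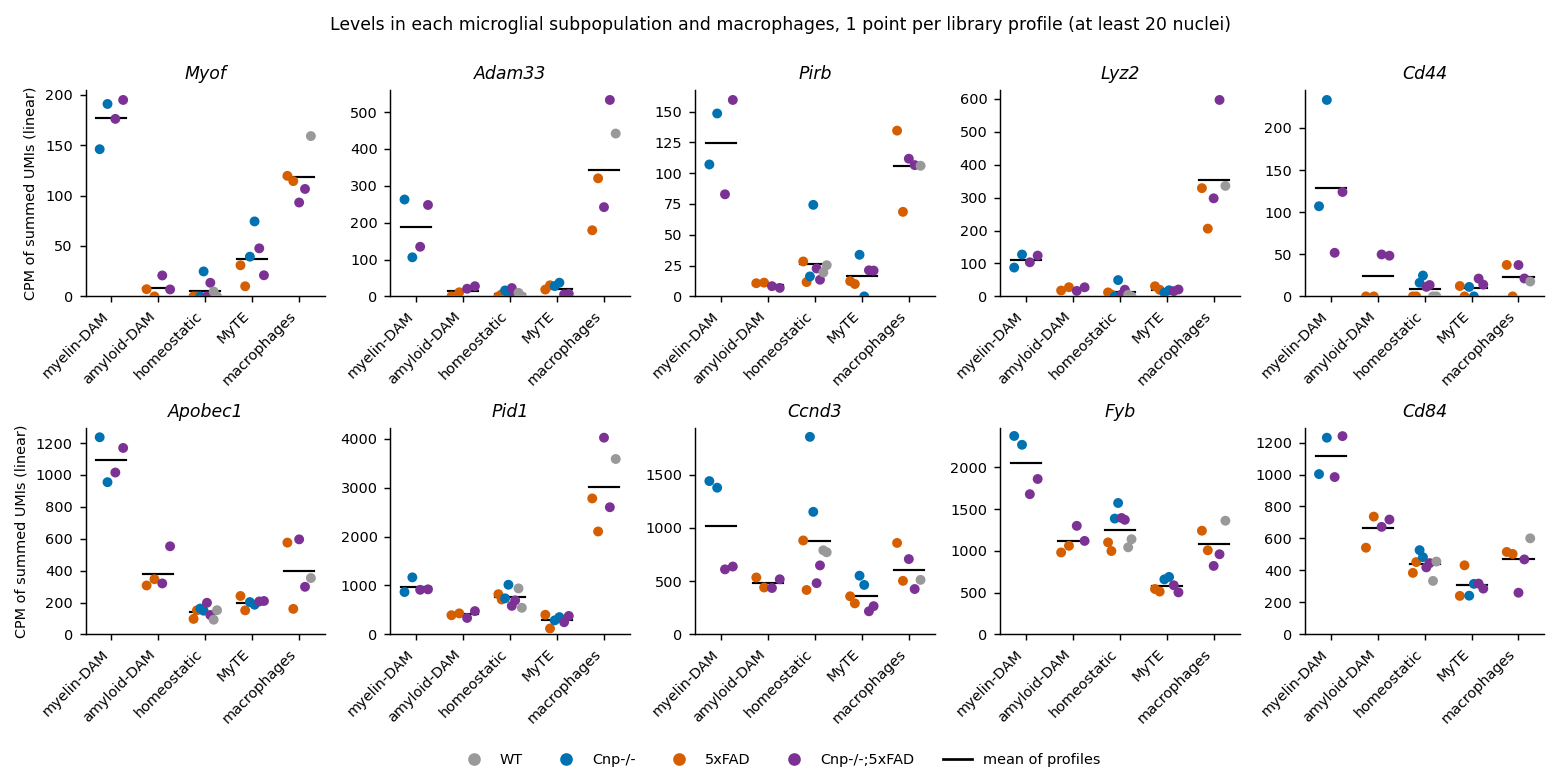
Level of each of the 10 genes (vertical axis, CPM of summed UMIs, linear, own scale in each panel) in the 5 populations (horizontal axis). Each point is the profile of 1 library with at least 20 nuclei, coloured by genotype, and the black bar is the mean of the profiles. Myelin-DAM lies above amyloid-DAM in all 10 panels, and macrophages lie above myelin-DAM for Lyz2 and Pid1.

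Macrophages were not alike for the 10 genes. Pid1 was at 2104 to 4023 CPM in the 5 macrophage profiles, wholly above myelin-DAM, and its ratio of means, myelin-DAM over macrophages, was 0.320. Lyz2 was at 206 to 597 CPM in macrophages, also wholly above myelin-DAM, with a ratio of 0.313. Apobec1, Fyb, Cd84 and Cd44 were the reverse, with every myelin-DAM profile above every macrophage profile and ratios of 2.76, 1.90, 2.37 and 5.68. Adam33, Myof, Pirb and Ccnd3 overlapped between myelin-DAM and macrophages, at ratios of 0.547, 1.49, 1.18 and 1.69. How many of all genes were apart between these populations was not counted, so the orders describe these genes alone. The 5 macrophage profiles of at least 20 nuclei include none of Cnp-/-. Over all 8 libraries Pid1 and Apobec1 still did not overlap with myelin-DAM, while Lyz2 (0 to 1541 CPM), Cd84 (up to 1091 CPM), Fyb (up to 1955 CPM) and Cd44 (up to 54.5 CPM) did.

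The comparison of the 2 DAM states mixes genotypes, because amyloid-DAM of 5xFAD has no partner from the same library. Within each Cnp-/-;5xFAD library both states came from the same tissue, and the ratio of myelin-DAM to amyloid-DAM could be formed with an exact 95% interval that covers counting error only. The genes were chosen on this contrast, so the ratios are a description. For Apobec1 the ratio was 3.18 (2.33 to 4.34) in the first library and 2.12 (1.5 to 2.97) in the second. For Pid1 it was 2.71 (1.98 to 3.71) and 1.93 (1.32 to 2.81). For Cd84 it was 1.46 (1.12 to 1.90) and 1.73 (1.26 to 2.36), and for Fyb it was 1.29 (1.06 to 1.57) and 1.66 (1.29 to 2.14). Myof had 17 against 5 UMIs and 11 against 1 UMI, which gave 8.48 (3.00 to 29.4) and 28.2 (4.10 to 1214). Adam33, Pirb and Lyz2 had ratios of 4.49 to 23.1, with lower bounds of 1.14 to 3.20. Ccnd3 was at 1.40 (1.00 to 1.95) and 1.23 (0.804 to 1.86), below the ratio over all profiles, which included the high Cnp-/- libraries. Cd44 was at 1.04 (0.287 to 3.17) and 2.56 (0.768 to 8.57). In the fit limited to these libraries the log2 fold change was 0.35 for Ccnd3.

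**Figure D2:**
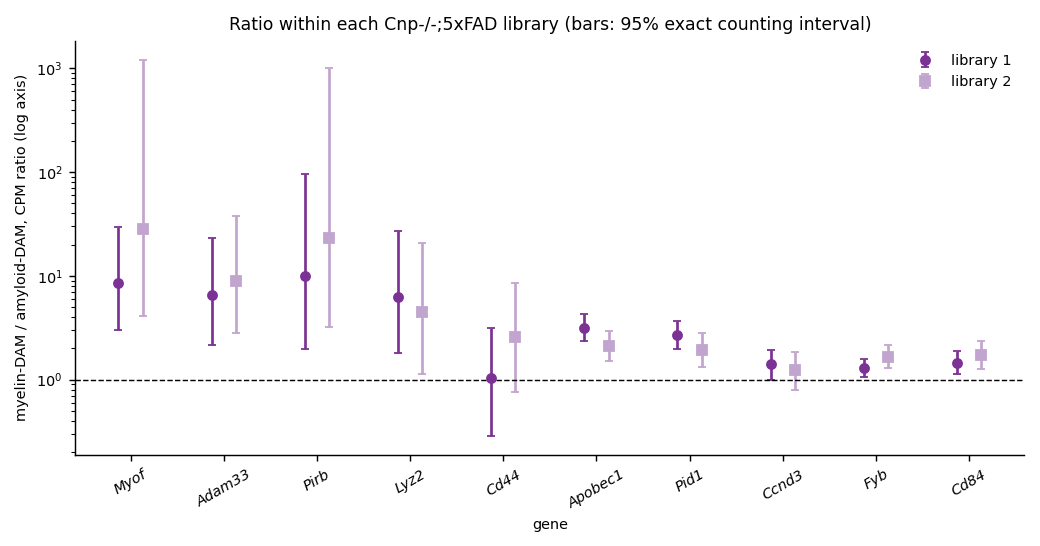
Ratio of CPM in myelin-DAM to CPM in amyloid-DAM (vertical axis, log scale) for each gene (horizontal axis) within each of the 2 Cnp-/-;5xFAD libraries. Points are the ratios, bars are exact 95% intervals for counting error, and the dashed line is a ratio of 1. Points run from 1.04 for Cd44 to 28.2 for Myof.

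The share of nuclei with at least 1 UMI gave the same picture with the depth beside it. Fyb was detected in 85.5% of 248 myelin-DAM nuclei (Wilson 95% interval 80.6 to 89.3%), Cd84 in 69.8%, Pid1 in 59.3%, Apobec1 in 56.9% and Ccnd3 in 55.6%. Myof was detected in 16.5%, Pirb and Cd44 in 12.5% each, and Adam33 and Lyz2 in 11.7% each. Amyloid-DAM, at a median of 1303 UMIs against 1208 UMIs in myelin-DAM, had Fyb in 67.7%, Apobec1 in 31.1%, Myof in 1.71% and Pirb in 1.37% of 586 nuclei. Neurons, which are not phagocytes and had a median of 9105 UMIs, showed a UMI of Apobec1 in 1.49%, of Pirb in 1.19% and of Lyz2 in 0.208% of 45141 nuclei. Adam33 and Pid1 were in 12.9% and 71.0% of neuronal nuclei, and several of the other genes stood high in a single neuronal cluster, so neuronal shares are levels in another cell type and not a clean background.

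Each nucleus was then thinned to 757 UMIs, which left out 39 myelin-DAM, 59 amyloid-DAM, 120 homeostatic, 3 MyTE and 8 macrophage nuclei with fewer. After thinning, Myof was in 11.5% of myelin-DAM and 0.759% of amyloid-DAM nuclei, and Pirb in 9.09% and 0.380%. A myelin-DAM nucleus had a UMI of 3.17 ± 0.34 of the 10 genes (mean and SD over 4 profiles), with 2.81 to 3.61 in single profiles. The number was 1.67 ± 0.15 in amyloid-DAM (n = 4), 1.80 ± 0.29 in homeostatic microglia (n = 8), 1.11 ± 0.20 in MyTE (n = 6) and 2.81 ± 0.28 in macrophages (n = 5). Between 56.4% and 69.7% of the myelin-DAM nuclei in a profile held 3 or more of the genes, against 16.1% to 28.7% in amyloid-DAM. The range was 45.8% to 69.6% in macrophages, which overlapped myelin-DAM, 12.5% to 42.6% in homeostatic microglia and 6.67% to 20.0% in MyTE. The genes were picked for a higher level in myelin-DAM or with Cnp loss, so these shares are a description. Of the 209 thinned myelin-DAM nuclei, 5 held none of the genes.

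**Figure D3:**
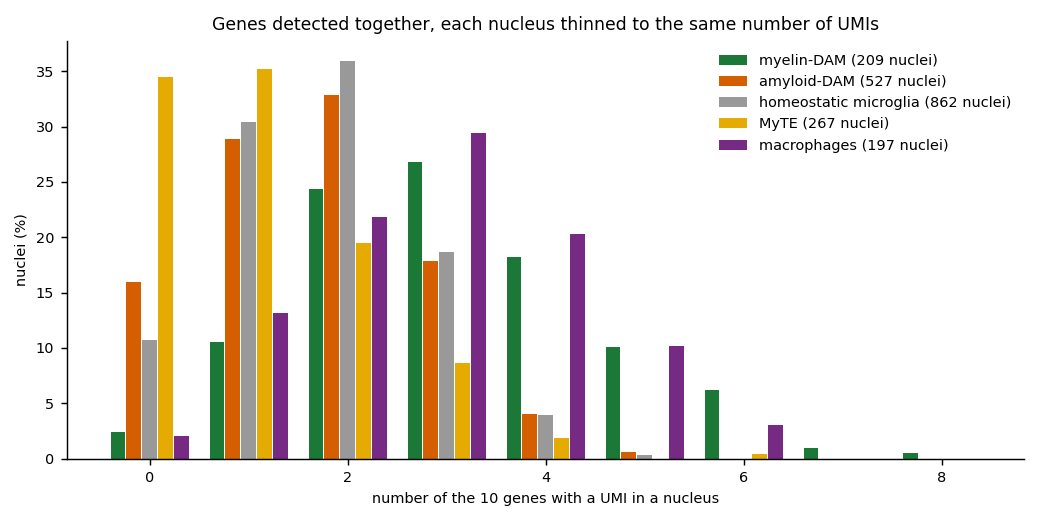
Number of the 10 genes with at least 1 UMI in a nucleus (horizontal axis) and percent of nuclei (vertical axis) in each of the 5 populations, after each nucleus was thinned to 757 UMIs. Bars of 1 colour add up to 100% of a population, pooled over libraries. Myelin-DAM and macrophages lie to the right of amyloid-DAM, homeostatic microglia and MyTE.

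A few nuclei carried the label that is rare for their genotype. The 19 amyloid-DAM nuclei of Cnp-/- libraries held 27121 UMIs and had Apobec1 at 885 CPM, with an exact 95% Poisson interval of 567 to 1317 CPM. Amyloid-DAM of 5xFAD had 322 CPM (272 to 378) and myelin-DAM of Cnp-/- had 1148 CPM (982 to 1332). Fyb was at 2016 and 1769 CPM in the 2 libraries these nuclei came from. Ccnd3 differed between them, at 1573 CPM on 32 UMIs in replicate 1 and 442 CPM on 3 UMIs in replicate 2. Pirb, Adam33 and Lyz2 had 0 UMIs in the 19 nuclei, with an exact upper bound of 136 CPM. Myof and Cd44 had 3 UMIs each in them, at 111 CPM (22.8 to 323). In amyloid-DAM of 5xFAD these 2 genes were at 4.35 CPM (0.527 to 15.7) and 0 CPM (0 to 8.03). The 12 myelin-DAM nuclei of 5xFAD libraries, with 14238 UMIs in all, were 5 of replicate 1 and 7 of replicate 2. Apobec1 was at 2302 and 931 CPM in them, Cd84 at 708 and 1048 CPM, and Ccnd3 had 1 and 4 UMIs. The labels were made from the same counts, so these values describe which nuclei received a label in which genotype and carry no test.

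Summed over all microglia without macrophages, the 10 genes had a median fitted log2 fold change of 1.10 with Cnp loss, against 0.02 over the 8185 genes fitted. This sum moves with the mix of states, because myelin-DAM nuclei came from libraries without Cnp. A larger share of myelin-DAM and a higher level in each nucleus cannot be told apart in it. Rare genes of the 10 could pass the filter on low counts through the libraries without Cnp alone, so both medians are not like for like. Myof was at 44.1 and 34.5 CPM in Cnp-/-;5xFAD and 56.6 and 84.9 CPM in Cnp-/-, against 0 to 10.1 CPM with intact Cnp, a log2 fold change of 3.05 ± 0.62. The folds of the rare genes turn on the few UMIs of WT: without WT replicate 1 they were 5.24 for Myof, 4.88 for Adam33 and 3.91 for Lyz2. With all libraries Adam33 (2.68 ± 0.62), Lyz2 (1.73 ± 0.64), Apobec1 (1.33 ± 0.15) and Myof had every library without Cnp above every other, as did Cd44, and 3.39% of 12091 genes with at least 10 UMIs had that order. Pirb was at 0.87 ± 0.45, Cd84 at 0.47 ± 0.14, Fyb at 0.42 ± 0.09, Ccnd3 at 0.23 ± 0.15 and Pid1 at 0.02 ± 0.18, and all 5 overlapped between libraries with and without Cnp. The value of Pid1 ran from -0.12 to 0.31 with each library left out, so its sign changed.

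Within 1 state fewer of the genes separated the libraries with and without Cnp. In homeostatic microglia Fyb had 1386 and 1573 CPM in Cnp-/- libraries, 1394 and 1371 CPM in Cnp-/-;5xFAD libraries, against 998 to 1139 CPM with intact Cnp, a log2 fold change of 0.42 ± 0.10. Cd44 was at 11.3 to 24.8 CPM in the 4 homeostatic profiles without Cnp and at 0 UMIs in the 4 with it. With a floor of 3 counts for the group at 0 the ratio was 3.55. It leaves out the counting error of the other group and is no lower bound. Those 2 genes had homeostatic profiles that did not overlap. Of the 8860 genes with at least 10 UMIs, 1.57% did so in this direction. Cd44 had 8 UMIs over all homeostatic profiles, so that share does not cover it and its order rests on few counts. In amyloid-DAM, Cd44 had 19 UMIs in Cnp-/-;5xFAD and 0 in 5xFAD, a ratio of 7.55 by the same floor. Fyb and Adam33 also had both Cnp-/-;5xFAD profiles above both 5xFAD profiles in amyloid-DAM, where 14.5% of 8230 genes did. Pirb was lower in both Cnp-/-;5xFAD profiles, but on 3 UMIs against 5, too few to compare. In macrophages no gene of the 10 separated the genotypes, and Lyz2 was highest in 1 WT library at 1541 CPM, where the other 7 libraries were at 0 to 597 CPM.

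Cd44 had its difference in mature oligodendrocytes as well. In mature oligodendrocytes the Cnp-/- libraries had 20.1 and 41.5 CPM and the Cnp-/-;5xFAD libraries 36.4 and 36.9 CPM, against 0 and 6.34 CPM in WT and 0.555 and 0 CPM in 5xFAD. There were 147 UMIs in the 4 libraries without Cnp and 7 in the others, a ratio of pooled levels of 21.7, and 3.21% of 12362 genes had no overlap in this direction. In astrocytes, the cell type in which Cd44 is best known, it was at 18.7 to 46.0 CPM without Cnp and at 15.3 to 24.6 CPM with it, with overlap. In neurons the means were 5.17 ± 1.78 CPM without Cnp and 5.30 ± 2.10 CPM with it (SD, n = 4 each). None of the other 9 genes separated the libraries in mature oligodendrocytes. In neurons Apobec1, Cd84, Fyb and Pirb had higher fitted levels with Cnp loss. Their log2 fold changes were 0.89 ± 0.28, 0.82 ± 0.23, 0.53 ± 0.18 and 0.49 ± 0.23. Of 21584 genes fitted, 0.47%, 0.61%, 2.15% and 2.68% were as high or higher, in the same order. Their mean levels in neurons were 0.98 to 5.92 CPM. Of the 10 genes, 6 lay above 0 in this fit and 9 overlapped between libraries with and without Cnp. The part of microglial transcripts in these levels was not tested.

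For the 5xFAD genotype, the mean of 5xFAD and Cnp-/-;5xFAD was set against the mean of WT and Cnp-/-, with edgeR's quasi-likelihood test and Benjamini-Hochberg adjustment over all genes. In myelin-DAM, where WT and 5xFAD had too few nuclei, Cnp-/-;5xFAD was set against Cnp-/- alone (2 profiles each). The genes were not picked on this contrast, but amyloid-DAM came almost wholly from 5xFAD libraries and a higher level in myelin-DAM was what they were picked for. The tests in all microglia and in myelin-DAM therefore share nuclei with the choice and are not independent of it. In all microglia 32 of 8185 genes (0.391%) passed the threshold of 0.05, and Ccnd3 was the only 1 of the 10. Ccnd3 fell with 5xFAD, with a log2 fold change of -0.90 ± 0.15 and an adjusted p of 0.0396 (edgeR). It was at 729 and 747 CPM in WT, 1196 and 987 CPM in Cnp-/-, 614 and 400 CPM in 5xFAD, and 413 and 498 CPM in Cnp-/-;5xFAD. The 4 libraries with 5xFAD were all below the 4 without it, an order that 1.13% of 12091 genes had. Amyloid-DAM, with a mean of 482 CPM, was common in 5xFAD libraries, and the mix of states and the level in each nucleus cannot be told apart in this sum.

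The call was lost on leaving out any 1 of 6 libraries. The adjusted p was 0.153 without WT replicate 1, 0.0681 without WT replicate 2 and 0.0949 without Cnp-/- replicate 1. It was 0.118 without 5xFAD replicate 2, and 0.122 and 0.0628 without Cnp-/-;5xFAD replicate 1 and replicate 2 (edgeR in each case). It was also lost without MyTE nuclei (adjusted p 0.0806) and with 51 nuclei drawn from each library (adjusted p 0.0968), while the log2 fold change stayed between -1.06 and -0.75 over these and the other 2 libraries left out.

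Within single populations the values of Ccnd3 were lower with 5xFAD and did not pass the threshold in edgeR with the filter on low counts. In homeostatic microglia the log2 fold change was -0.84 ± 0.23 (edgeR adjusted p 0.432), in a fit where 0.0657% of 4566 genes passed, and the libraries overlapped, where 1.16% of 8860 genes had all 5xFAD libraries below. In myelin-DAM it was -1.18 ± 0.19 (edgeR adjusted p 0.145), where 0% of 3919 genes passed and 242 had an unadjusted p under 0.05. Both Cnp-/-;5xFAD profiles of myelin-DAM were below both Cnp-/- profiles, an order that 15.8% of 5412 genes had. In macrophages it was -0.56 ± 0.31 (edgeR adjusted p 0.958), where 0.132% of 1513 genes passed, again with overlap (1.17% of 6668 genes had none in this direction), and -0.10 without WT replicate 2. In MyTE, which were not fitted, the 4 profiles with 5xFAD had 217 to 358 CPM and the 2 of Cnp-/- had 465 and 552 CPM. DESeq2 gave adjusted p-values of 0.0253 in homeostatic microglia and 0.00657 in myelin-DAM, and edgeR without the filter called Ccnd3 in both (adjusted p 0.000131 and 0.000190). In these 2 populations DESeq2 called 14 of 4566 and 3 of 3919 genes, and edgeR without the filter 60 of 16178 and 11 of 15794. With the myelin-DAM profiles alone, edgeR called 0 of the 8 members that passed the filter and 0 of 2139 genes.

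Beyond microglia Ccnd3 was fitted in 3 more cell types. In neurons Ccnd3 was at 13 and 13.2 CPM in WT, 14.9 and 14.6 CPM in Cnp-/-, 10.4 and 7.73 CPM in 5xFAD, and 7.61 and 6.55 CPM in Cnp-/-;5xFAD. The 2 sets of libraries did not overlap, which 2.42% of 25240 genes showed in this direction. The log2 fold change was -0.77 ± 0.12 (edgeR adjusted p 0.280). In this fit 0% of 21584 genes passed the threshold and 2542 had an unadjusted p under 0.05. DESeq2 called 506 genes in neurons, 2 of the 10 among them. In mature oligodendrocytes it was -0.57 ± 0.27 (edgeR adjusted p 1.00) and in astrocytes -0.24 ± 0.17 (edgeR adjusted p 0.974), both with overlapping libraries, where 0.874% of 12362 and 1.07% of 15858 genes had all 5xFAD libraries below. The remaining cell types were not fitted, and their libraries overlapped. The mean was lower with 5xFAD in endothelial cells (190 against 252 CPM) and newly formed oligodendrocytes (96.2 against 112 CPM), and higher in pericytes (191 against 181 CPM) and in oligodendrocyte precursors (16.9 against 10.8 CPM, on 72 UMIs in all).

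**Figure D4:**
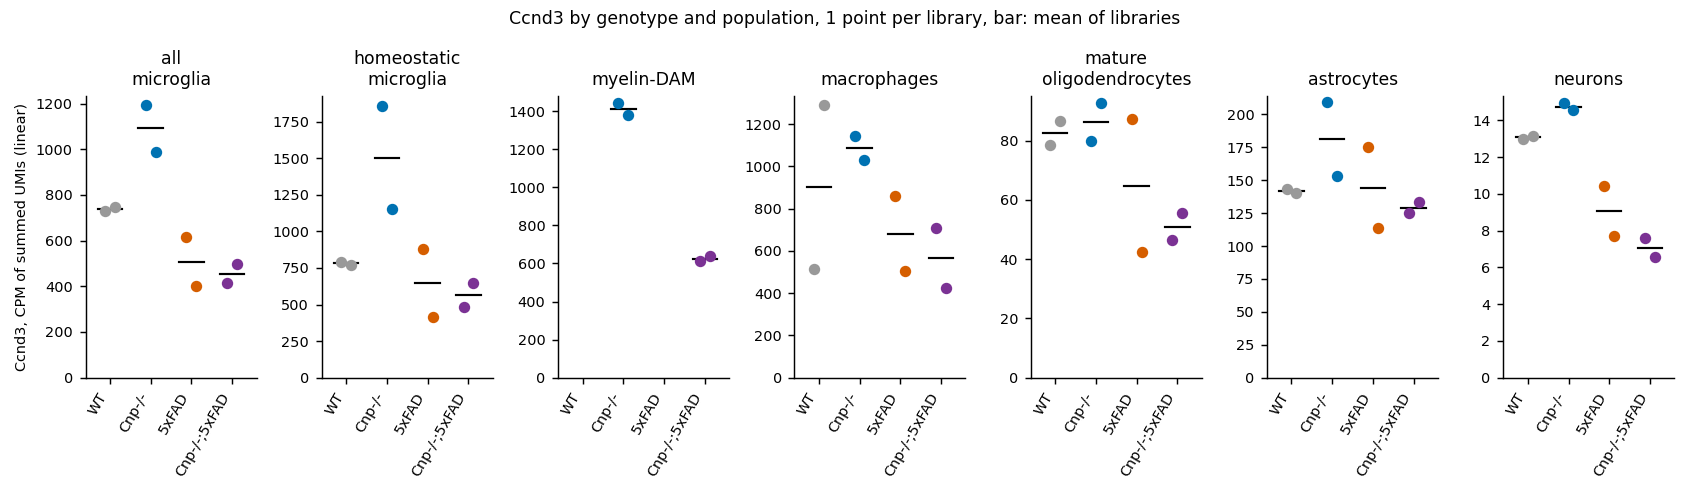
Ccnd3 (vertical axis, CPM of summed UMIs, linear from 0, own scale in each panel) by genotype (horizontal axis) in 7 populations. Each point is 1 library and the bar is the mean of the libraries of a genotype; myelin-DAM has profiles of at least 20 nuclei in 2 genotypes. In all microglia and in neurons the 4 libraries with 5xFAD lie below the 4 without it.

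The other 9 genes passed the threshold in none of the 7 tests. In all microglia, Apobec1 had a log2 fold change of 0.42 ± 0.16 (edgeR adjusted p 0.370), Pirb of -1.02 ± 0.45 (edgeR adjusted p 0.476), Pid1 of -0.44 ± 0.18 (edgeR adjusted p 0.423) and Fyb of -0.23 ± 0.09 (edgeR adjusted p 0.413), each with an unadjusted p under 0.05. In myelin-DAM, Fyb had -0.40 ± 0.15 (edgeR adjusted p 0.696), and Apobec1, Pid1 and Cd84 lay between -0.10 and 0.01, with standard errors of 0.21 to 0.25. The filter on low counts was passed by 5 of the genes in homeostatic microglia, 7 in macrophages, 3 in mature oligodendrocytes, 4 in astrocytes, and all 10 in the other fits. In neurons Pid1 had -0.53 ± 0.10 (edgeR adjusted p 0.280), with 158 to 225 CPM in 5xFAD libraries and 247 to 315 CPM in the others, which did not overlap, as for 2.42% of 25240 genes in this direction. DESeq2 gave Pid1 an adjusted p of 0.000542 in neurons, as 1 of the 506 genes it called there.

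The cell types of the whole brain table divided the genes into those held by phagocytes and those shared widely. Fyb was at 1133 CPM in all microglia and Cd84 at 504 CPM (means over 8 libraries), while Cd84 was at no more than 3.30 CPM on average in astrocytes, neurons, mature oligodendrocytes, oligodendrocyte precursors, endothelial cells and pericytes, and Fyb at no more than 11.3 CPM. Newly formed oligodendrocytes had more of both, at 66.6 ± 37.1 CPM for Fyb and 22.0 ± 15.5 CPM for Cd84 (SD, n = 8). Homeostatic microglial markers summed to a median of 364 CPM in them, against 52.5 CPM in mature oligodendrocytes. The median was 3959 CPM in all nuclei annotated as microglia, macrophages included. The part of microglial transcripts in the levels of newly formed oligodendrocytes was not tested. Pirb was at or below 2.2 CPM in every cell type but microglia and macrophages, and Lyz2 at or below 8.69 CPM, its level in endothelial cells.

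Pid1 was the most widespread of the 10. It was at 1247 ± 295 CPM in pericytes, 984 ± 86.3 CPM in oligodendrocyte precursors, 623 ± 125 CPM in newly formed oligodendrocytes and 439 ± 40.8 CPM in astrocytes, but at 4.06 ± 3.05 CPM in mature oligodendrocytes (SD, n = 8 in each). Mature and newly formed oligodendrocytes did not overlap, at 0 to 6.91 CPM and 453 to 875 CPM. Ccnd3 was at 221 ± 60.8 CPM in endothelial cells, 149 ± 30.5 CPM in astrocytes and 11 ± 3.36 CPM in neurons. Myof was highest in endothelial cells outside phagocytes, at 50.5 ± 7.55 CPM, and Apobec1 in pericytes, at 157 ± 115 CPM on 70 UMIs. Adam33 was at 18.1 ± 3.81 CPM in neurons and had 0 UMIs in mature oligodendrocytes and in astrocytes.

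Some genes were highest in a single neuronal cluster of the 25 in the authors' annotation. Myof was at 27.9 CPM in cluster 8 (2171 nuclei), with 22.8 to 32.7 CPM over the 8 libraries and 25.1% of all neuronal Myof UMIs, where the median cluster had 1.29 CPM. Cd44 was at 63.9 CPM in cluster 20 (1122 nuclei), with 54.8 to 71.1 CPM over the libraries, where the median cluster had 2.28 CPM. Adam33 was at 60.8 CPM in cluster 5 (2967 nuclei), followed by cluster 7 at 41.2 CPM. Cluster 13 (1691 nuclei) was the highest for Apobec1, Lyz2, Ccnd3, Fyb and Cd84, with 19.8% to 40.5% of the neuronal UMIs of each. Its libraries spread widely, from 38.8 to 71.6 CPM for Ccnd3, 8.77 to 43.2 CPM for Fyb, 1.46 to 23.9 CPM for Cd84 and 0 to 16.1 CPM for Apobec1. Lyz2 had 51 UMIs there, with a library median of 0.681 CPM and 1 library at 17.9 CPM. Whether nuclei of other cell types are part of it was not tested, and the clusters are named here by their number alone.

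**Figure D5:**
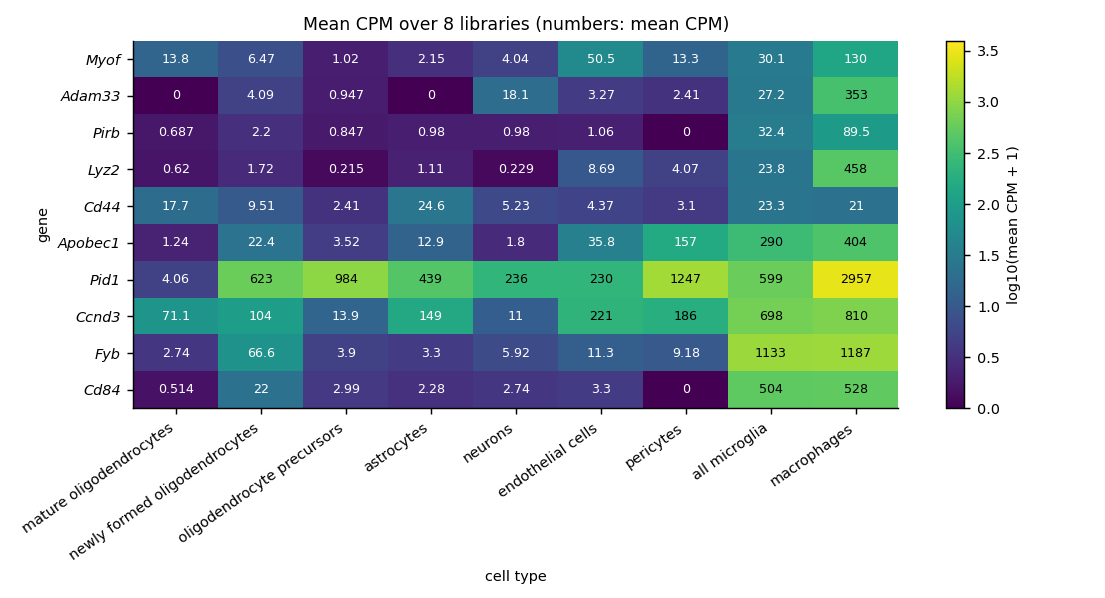
Mean level over 8 libraries (CPM, printed in each cell, colour on a log10 scale of CPM + 1) of the 10 genes (rows) in 7 cell types, in all microglia and in macrophages (columns). Pid1 spans the table apart from mature oligodendrocytes, and Fyb and Cd84 stand in microglia and macrophages.

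The pattern of the 10 genes over the 27 profiles was summed as the mean of their z-scores, and 4297 other genes with a mean of at least 50 CPM were ranked by their Pearson correlation with it. The 5 most alike were Lcp1 (0.86), Gm26740 (0.85), Gm13710 (0.85), Ifnar1 (0.85) and Mdfic (0.84), and all 5 stayed at 0.81 to 0.87 over the 22 profiles without macrophages. Lcp1 encodes the actin bundler L-plastin and Ifnar1 a chain of the type I interferon receptor. Mdfic was at 332 CPM in myelin-DAM, 73.1 CPM in amyloid-DAM and 32.6 CPM in homeostatic microglia, and Gm13710 was at 234, 34.2 and 85.9 CPM in the same order. The profiles share libraries and depth and were in part what the genes were chosen on, so these values are a description. Between pairs of the 10 genes, the correlation ran from 0.07 for Lyz2 with Ccnd3 to 0.87 for Adam33 with Lyz2.

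Partner genes of each role were taken from 10 lists and are described by their levels in both DAM states, where 2.83% of 8979 genes had every myelin-DAM profile above every amyloid-DAM one. Of the SLAM family, whose members bind each other between blood cells, 5 of 11 passed the filter in all microglia. Cd48 averaged 222 ± 53.1 CPM over myelin-DAM profiles against 129 ± 32 CPM over amyloid-DAM profiles (SD, n = 4 each), and Slamf6 at 119 ± 44.0 and 63.1 ± 32.5 CPM, both with overlap. In the RNA editing list, Rbm47, which binds the target RNA for Apobec1, was at 694 ± 76.2 against 532 ± 5.11 CPM. Apobec3, a relative of Apobec1, was at 383 ± 57.3 against 254 ± 14.7 CPM, and both were without overlap. In phagosome digestion the cathepsin Ctss was at 760 ± 135 against 488 ± 29.7 CPM without overlap, and Ctsb at 766 ± 90.3 against 631 ± 85.9 CPM with overlap. These pairs do not stand for their lists. Of the genes fitted, 5 of 12 for phagosome digestion and 2 of 4 for RNA editing had a log2 difference above 0. The medians were -0.067 and -0.073.

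The partners of Fyb and Pid1 differed in direction. Apbb1ip, which joins Rap1 to integrins downstream of adaptors such as ADAP, was lower in myelin-DAM than in amyloid-DAM, at 1384 ± 127 against 2248 ± 78.2 CPM, while the kinase Lyn was higher, at 1400 ± 153 against 1066 ± 48.8 CPM. Numb, a phosphotyrosine-binding adaptor as Pid1 is, was at 727 ± 99.1 against 1246 ± 139 CPM, and Lrp1b had too few UMIs in either state to be compared. Of the G1 genes, Rb1 was at 488 ± 160 against 321 ± 21.2 CPM and E2f3 at 230 ± 33.7 against 276 ± 36.6 CPM. The paired-receptor signalling genes Inpp5d and Sirpa overlapped between the states, as did Adam10 and Adam17, the membrane repair genes Ehd4 and Mvp, and the CD44 partner Rdx. Msn (moesin), which ties CD44 to actin, was at 312 ± 40.3 against 231 ± 17.6 CPM without overlap.

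In the 5xFAD test in all microglia, where 0.391% of 8185 genes passed the threshold, 2 partner genes did, both named after their values were seen. They were 1 of 10 paired-receptor genes tested and 1 of 5 RNA editing genes tested, and no other partner list had any. Lilrb4a, an inhibitory receptor of the family of Pirb, rose by 2.01 ± 0.31 on the log2 scale (edgeR adjusted p 0.0227) and was at 16.4 and 0 CPM in WT and at 174 to 249 CPM in all other libraries, Cnp-/- included. Adarb1, an adenosine deaminase of RNA, had an edgeR adjusted p of 0.00404 and was at 60.9 to 189 CPM in the 4 libraries with 5xFAD and at 0 to 10.6 CPM in the others. None of the 9 genes of the G1 list that passed the filter was called there, and Cdk6 had 0.32 ± 0.19 and Rb1 -0.23 ± 0.15 beside the fall of Ccnd3.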

How the data were processed

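Deposited files were 2 tables of raw UMI counts per gene and nucleus, 1 of all cell types and 1 of microglia and macrophages, with the authors' annotation of each nucleus. The authors aligned reads with Cell Ranger 6.1.2 to mm10, removed ambient RNA with CellBender, filtered nuclei and clustered them with Seurat. Whether intronic reads were counted and how doublets were treated is not given in the sources used here, and no doublet caller was run. Every column was mapped to a sample.

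UMIs were summed per library and population. The 5xFAD effect was tested with edgeR 4.0.16 in R 4.3.3 (filterByExpr, TMM, quasi-likelihood, two-sided, Benjamini-Hochberg threshold 0.05, 4 genotypes sharing 1 spread), after tests on simulated data; macrophages needed 5 nuclei per library, other populations 20. DESeq2 1.42.0 was an alternative. The myelin-DAM fit also held amyloid-DAM profiles. It and the fit of both DAM states treated the profiles of the same Cnp-/-;5xFAD library as independent. Leaving out a library left 1 sample in a genotype, assumed to vary like the rest. CPM is per 1000000 UMIs of a profile. Intervals cover counting error only. A floor (3 counts) stands in for a count of 0 and leaves out the counting error of the other group. Partner genes were named as the 2 of each list with the highest mean CPM over microglial profiles, similar genes as the 5 highest correlations of log2(CPM + 10). The members and lists were chosen with earlier results of these data known.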

Additional observations from a re-analysis of the deposited data

Results flagged for a closer look

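The level of each of the 10 genes was checked in each of the 5 populations for a library that stood far from the others, by Dixon's test, in 50 sets of profiles. Chance alone flags about 1 in 20 such sets. Of these, 5 stood out. Apobec1 in amyloid-DAM was at 553 CPM in Cnp-/-;5xFAD replicate 2 on 80 UMIs, where the next of the 4 profiles was at 346 CPM. In homeostatic microglia, Cnp-/- replicate 2 was at 49.5 CPM for Lyz2 and at 74.3 CPM for Pirb, on 4 and 6 UMIs, where the next libraries were at 20.3 and 28.3 CPM. In macrophages, Cd84 was at 1091 CPM in Cnp-/- replicate 1 on 20 UMIs, next to 601 CPM, and Lyz2 was at 1541 CPM in WT replicate 2 on 62 UMIs, next to 597 CPM. No gene had opposite 5xFAD differences with and without Cnp, each without overlap, among 60 pairs of gene and population.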

How the results depend on the processing

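Ccnd3 was the 1 member called in all microglia; the call was kept with the size factors of DESeq2 (adjusted p 0.0325), without a filter on low counts, with DESeq2 and with the replicate block (adjusted p 0.0452), and lost, to 0 members, without MyTE nuclei, with the same number of nuclei per library, and on leaving out 6 of the 8 libraries (range 0 to 1). Where no member was called, DESeq2 called 1 in homeostatic microglia, 1 in myelin-DAM and 2 in neurons, and dropping the filter called 1 in homeostatic microglia and 1 in myelin-DAM. With DESeq2 and without the filter the genes called numbered 126 and 264 against 32 in all microglia, 14 and 60 against 3 in homeostatic microglia, 0 and 18 against 2 in macrophages, 3 and 11 against 0 in myelin-DAM, 12 and 37 against 0 in mature oligodendrocytes, and 2 and 352 against 0 in astrocytes; in neurons DESeq2 called 506 against 0. With each library left out in turn the genes called were 19 to 48 in all microglia, 2 to 9 in homeostatic microglia, 0 to 22 in macrophages, 0 to 2 in myelin-DAM and 0 to 4 in neurons. The cause was not tested. The median log2 fold change of the members in myelin-DAM over amyloid-DAM, 1.52 as reported, was 1.24 in the Cnp-/-;5xFAD libraries alone (over 8 genes against 9, as Pirb did not pass the filter there), 1.54 with the replicate block, and 1.42 to 1.69 with each library left out, over the 9 genes fitted with all libraries (Cd44 passed the filter in 3 of those fits, at 1.76, 1.90 and 3.43, and is not in the range). With Cnp loss in all microglia the median was 1.10, 1.04 to 1.21 with each library left out, and 1.10 with the replicate block, added after seeing the data. The replicate numbers did not pair the libraries: deviations of same-numbered libraries correlated at -0.04 to 0.08, the block changed no call of a member, and it called 1 gene against 0 in myelin-DAM. The fit of macrophages with all genotypes could not be limited to libraries with at least 20 nuclei, as no Cnp-/- library was left. For the rare genes, depth limits what could be seen: Myof, Pirb, Lyz2 and Cd44 did not pass the filter in homeostatic microglia, and neither did Adam33.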

Other observations

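The table of all cell types annotated 2472 nuclei as microglia, of which 181 had no subpopulation and entered no comparison above. These 181 nuclei had a median of 3880 UMIs, against 1327 UMIs in the 2291 with one. Their pooled levels were 316 CPM for Fyb, 171 CPM for Cd84, 127 CPM for Apobec1 and 256 CPM for Ccnd3, against 1109, 510, 326 and 647 CPM in the nuclei with a subpopulation. Homeostatic microglial markers summed to 1314 CPM in them against 4457 CPM, while neuronal markers summed to 633 CPM against 4.05 CPM and astrocyte markers to 1222 CPM against 328 CPM. Myof, Adam33, Pirb, Lyz2 and Cd44 had 21, 30, 14, 28 and 9 UMIs in these nuclei.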
